A study of Mus musculus with 5 samples.

Results

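Keratin-associated protein genes (Krtap) encode small proteins of the hair shaft and lie in clusters on several chromosomes. They were taken here as all protein-coding genes of the RefSeq annotation of GRCm38.p6 (the build also called mm10) whose symbol begins with Krtap, which gave 56 of 21631 protein-coding genes. Chromosome 16 held 24 of them, chromosome 11 held 23, chromosome 7 held 5, chromosome 10 held 3 and chromosome 1 held 1. Their annotated lengths ran from 304 to 1891 bp, with a median of 833 bp, against 17329 bp for all protein-coding genes.

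The chromatin came from basal cells of the epidermis of back skin, taken from mice labelled control at postnatal day 71. The mice carried the reporters K14-RFP and K10-H2B-GFP, which use keratin promoters to label basal and suprabasal keratinocytes, and cells with Sca1, strong RFP and no GFP were collected by sorting. Chromatin immunoprecipitation and sequencing was done with an antibody to H2AK119ub in 2 libraries and with an antibody to H3K27me3 in 2 libraries, beside 1 input library. The data are 1 list of called regions per mark, with no height, score or replicate column, so that every value below describes these lists, the spread between replicates and the read depth are unknown, and no test over samples could be made.

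Keratin-associated proteins form the matrix that embeds and cross-links the keratin filaments of the hair cortex and cuticle. They fall into high sulfur and ultrahigh sulfur proteins, which are rich in cysteine, and high glycine-tyrosine proteins, and are made late in hair differentiation rather than in basal epidermis. H2AK119ub, histone H2A carrying ubiquitin, is deposited by Polycomb repressive complex 1 (PRC1), and H3K27me3, trimethylated histone H3, by Polycomb repressive complex 2 (PRC2). Both complexes are known for holding developmental genes silent, most often at promoters rich in CpG.

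The Krtap clusters differed from one another in both marks. All 5 Krtap5 genes of chromosome 7 had H3K27me3, the 3 genes of chromosome 10 had H2AK119ub alone, the 23 genes of chromosome 11 fell into runs of marked and unmarked genes, and 23 of the 24 genes of chromosome 16 had neither mark. A gene was counted as marked where a region lay within 1 kb of either annotated end, which for genes this short takes in the whole body. By this measure 18 of 56 Krtap genes (32.1%) had H2AK119ub, against 57.1% of all protein-coding genes. H3K27me3 was present at 14 (25%), against 24.7% of all protein-coding genes, a share near the background. Both marks were present at 10 (17.9%, against 21.1%; 4 genes when only regions of 5 kb or wider were kept), H2AK119ub alone at 8 (14.3%, against 36.0%), H3K27me3 alone at 4 (7.14%, against 3.58%) and neither at 34 (60.7%, against 39.4%).

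The totals differed by cluster, and the background by gene length. Outside chromosome 16, 17 of 32 Krtap genes (53.1%) had H2AK119ub, 14 (43.8%) had H3K27me3 and 11 (34.4%) had neither. Among the 2326 protein-coding genes no longer than the longest Krtap gene only 22.6% had H2AK119ub and 11.7% had H3K27me3. The Krtap share of H2AK119ub was thus below that of all genes and above that of short genes, and the H3K27me3 share was near the former and above the latter. Keratin genes (symbols of Krt and a number), which encode the filaments, had H2AK119ub at 52 of 53 and H3K27me3 at 26 of 53. The shares of all protein-coding genes to set beside these are 57.1% and 24.7%. None of these differences was tested, because genes of a cluster share regions and there is 1 list per mark.

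**Figure D1:**
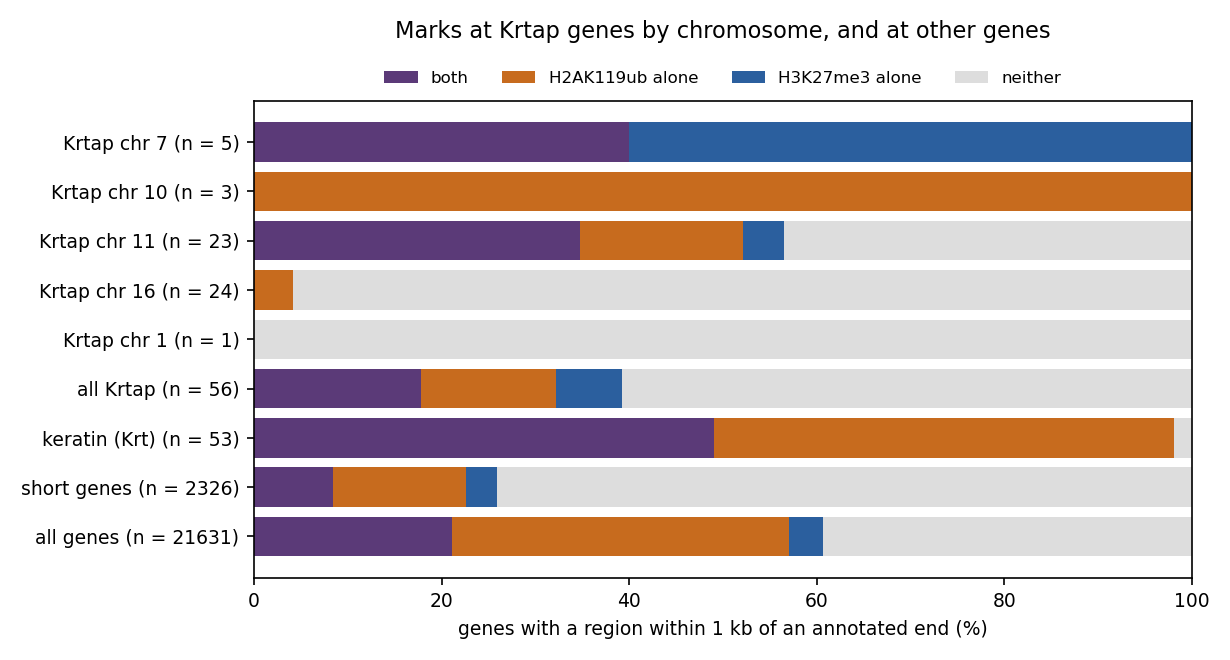
Stacked bars give the percent of genes with both marks, 1 mark or neither within 1 kb of an annotated end, for the Krtap genes of each chromosome, all Krtap genes, keratin genes, protein-coding genes no longer than the longest Krtap gene (short genes) and all protein-coding genes, with n genes beside each bar. The chromosome 7 bar holds no gene without H3K27me3, while 23 of the 24 genes of chromosome 16 are in the neither class.

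Start sites are shown for 1 gene per pattern, to let the sequence under each state be read: Krtap5-5 (H3K27me3 alone), Krtap10-4 (H2AK119ub alone), Krtap4-1 (both marks), Krtap1-5 (neither, on chromosome 11), Krtap8-1 (neither, on chromosome 16) and Krtap11-1 (the 1 marked gene of chromosome 16). Each line gives the 250 bases before the annotated start, 5′ to 3′ on the gene's strand, from the RefSeq promoter table of GRCm38.p6, with every TATAAA in capitals.
Krtap5-5, chr7:142229972-142230221, minus strand: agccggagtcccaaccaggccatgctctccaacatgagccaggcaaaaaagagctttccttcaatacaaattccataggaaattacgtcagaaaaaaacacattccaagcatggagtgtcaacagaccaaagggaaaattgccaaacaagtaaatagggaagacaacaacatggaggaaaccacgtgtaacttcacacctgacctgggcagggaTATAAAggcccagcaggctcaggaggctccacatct
Krtap10-4, chr10:77827071-77827320, minus strand: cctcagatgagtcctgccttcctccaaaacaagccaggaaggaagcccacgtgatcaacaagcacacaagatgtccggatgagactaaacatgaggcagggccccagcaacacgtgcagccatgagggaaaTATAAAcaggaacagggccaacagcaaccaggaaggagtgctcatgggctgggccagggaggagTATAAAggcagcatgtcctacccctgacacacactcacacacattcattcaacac
Krtap4-1, chr11:99628240-99628489, minus strand: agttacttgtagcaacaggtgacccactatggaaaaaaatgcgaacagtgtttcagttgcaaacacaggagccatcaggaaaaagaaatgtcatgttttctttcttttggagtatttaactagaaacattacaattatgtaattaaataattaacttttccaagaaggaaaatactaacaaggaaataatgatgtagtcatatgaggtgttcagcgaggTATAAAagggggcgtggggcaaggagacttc
Krtap1-5, chr11:99581017-99581266, minus strand: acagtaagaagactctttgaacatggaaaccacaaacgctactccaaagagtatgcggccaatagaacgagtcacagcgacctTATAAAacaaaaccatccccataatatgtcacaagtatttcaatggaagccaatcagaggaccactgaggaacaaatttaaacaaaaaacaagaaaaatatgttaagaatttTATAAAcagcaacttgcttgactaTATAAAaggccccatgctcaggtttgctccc
Krtap8-1, chr16:89487953-89488202, minus strand: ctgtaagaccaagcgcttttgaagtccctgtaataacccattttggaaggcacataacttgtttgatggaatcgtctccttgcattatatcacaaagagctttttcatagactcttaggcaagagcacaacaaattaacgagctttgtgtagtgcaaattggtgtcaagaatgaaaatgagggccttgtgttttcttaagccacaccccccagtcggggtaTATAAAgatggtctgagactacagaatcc
Krtap11-1, chr16:89571184-89571433, minus strand: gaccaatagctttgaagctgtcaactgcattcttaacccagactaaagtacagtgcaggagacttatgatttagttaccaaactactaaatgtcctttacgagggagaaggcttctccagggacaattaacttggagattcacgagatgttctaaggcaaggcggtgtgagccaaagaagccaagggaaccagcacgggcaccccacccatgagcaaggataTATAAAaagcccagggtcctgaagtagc

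All 6 stretches were poor in CpG and carried TATAAA. The CpG dinucleotides in the shown bases numbered 3 in Krtap5-5, Krtap10-4 and Krtap4-1, and 4 in Krtap1-5, Krtap8-1 and Krtap11-1. The last TATAAA began 36 bases before the start in Krtap5-5, 31 in Krtap4-1 and Krtap1-5, 29 in Krtap8-1 and 28 in Krtap11-1. Krtap10-4 had its last TATAAA 55 bases before the start, and 2 copies in all.

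Over the whole family CpG was also low. The promoter table had 51 of the 56 Krtap genes, and not Krtap1-3, Krtap7-1, Krtap9-1, Krtap10-10 and Krtap12-1. In windows of 300 bp (250 before to 50 after the start) the median number of CpG was 2, with a range of 0 to 9, against a median of 13 for 21045 starts of protein-coding genes. Median GC content was 41.3%, against 56.7%. By state the median CpG was 3 at the 9 Krtap windows with both marks, 3 at the 6 with H2AK119ub alone, 1.5 at the 4 with H3K27me3 alone and 2 at the 32 with neither. Among all genes the medians were 14, 19, 7 and 6 in the same order. The Krtap median was thus under the all-gene median in each state, and the ranges over all genes, Krtap genes included, also began at 0 CpG. Krtap17-1 (8) and Krtap24-1 (9), the highest of the family, had both marks and neither.

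**Figure D2:**
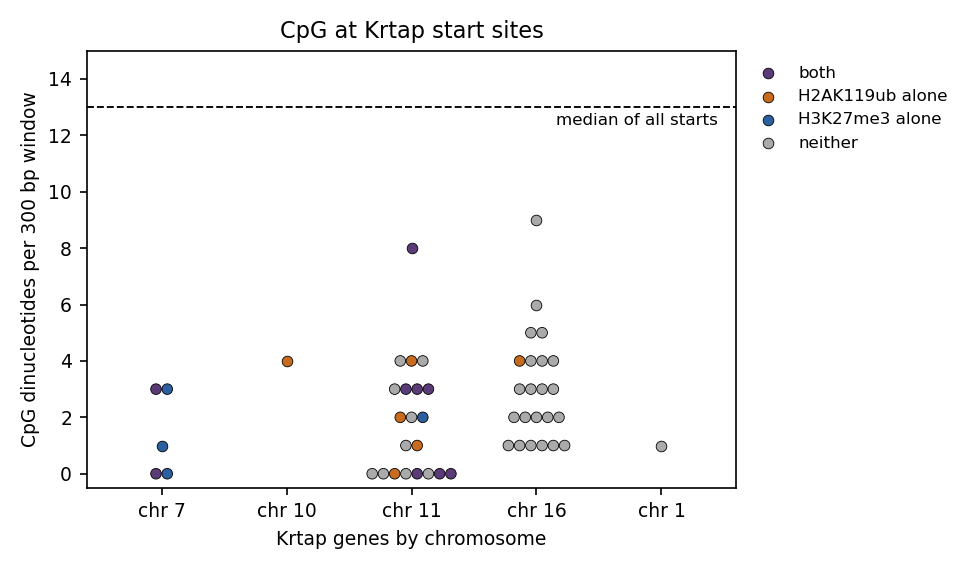
Each point is the number of CpG dinucleotides in the 300 bp window at the start of 1 Krtap gene, grouped by chromosome and coloured by the marks within 1 kb of its annotated ends; the dashed line is the median of all protein-coding starts (13). All 51 Krtap points lie under that line, and marked and unmarked genes overlap.

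TATAAA, searched on both strands of these windows, was present in 42 of 51 Krtap windows (82.4%), against 12.7% of all protein-coding windows. It was in all 9 Krtap windows with both marks and all 6 with H2AK119ub alone. It was also in 3 of 4 with H3K27me3 alone and in 24 of 32 with neither. Over all protein-coding windows the shares in the same order were 9.8%, 7.59%, 14.2% and 19.2%, highest with neither mark. By chromosome TATAAA was in 20 of 21 Krtap windows on 11 and 16 of 23 on 16, so the counts by state also reflect chromosome. No link between TATAAA and state was tested. On the gene's strand and beginning 25 to 40 bases before the start, TATAAA was present in 31 of 51 Krtap windows (60.8%), against 2.49% of all protein-coding windows. CTTTGAA, a motif of the type bound by the hair factor Lef1 and its Tcf relatives, was present on either strand in 9 (17.6%), against 4.55%. TTTATGG, of the type bound by the hair shaft regulator Hoxc13, was present in 5 (9.80%), against 2.28%. The Krtap windows had the lower GC content given above, and its part in these shares was not tested.

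The Krtap5 genes of chromosome 7, which encode ultrahigh sulfur proteins of the hair cuticle, lay in a nearly continuous stretch of H3K27me3. From Krtap5-2 to Krtap5-4 the span was 130 kb (142174532 to 142304503), and 7 H3K27me3 regions covered 78.1% of it, against 6.94% of the chromosome. H2AK119ub covered 40.6% in 4 regions, against 21.1% of the chromosome, and 35.7% of the span had both marks. Krtap5-2 was wholly inside a 22.4 kb H3K27me3 region from 142156232 to 142178629. Krtap5-5 was wholly inside one of 11.6 kb from 142223438 to 142235003. Krtap5-1 and Krtap5-4 shared one of 22.6 kb from 142290227 to 142312812. Krtap5-3 was the exception in that its region of 11.1 kb, from 142202314 to 142213431, covered 42.5% of the body at its far end and left the start site outside.

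H2AK119ub divided these 5 genes. Krtap5-1 and Krtap5-4 were wholly inside a 32.4 kb H2AK119ub region from 142275179 to 142307622, whereas Krtap5-2, Krtap5-3 and Krtap5-5 were 26.3, 37.5 and 10.5 kb from the nearest one. The 3 genes without H2AK119ub lay in a stretch of 92.3 kb free of that mark, from 142148190 to 142240511. All 5 other protein-coding genes inside the span, which have predicted-gene symbols, had H3K27me3, and 4 had both marks. Over all protein-coding genes the shares were 24.7% and 21.1%. At the upper border H3K27me3 ended shortly above Krtap5-4, while H2AK119ub, already present inside the span, went on beyond it. Over the 200 kb beyond Krtap5-4, H2AK119ub covered 97.9% and H3K27me3 5.47%. Ifitm10, the next gene with H2AK119ub, lay in a 146 kb region of that mark from 142310598, and the next gene with H3K27me3 was Igf2, the imprinted growth factor gene, 346 kb away. Over the 200 kb below Krtap5-2 the coverages were 57.4% for H2AK119ub and 33.4% for H3K27me3, and the nearest marked genes were the predicted genes Gm4553 (H3K27me3 alone, in the region of Krtap5-2) and Gm45337 (both marks).

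The 3 Krtap genes of chromosome 10, classed here as ultrahigh sulfur by family number alone, carried H2AK119ub and no H3K27me3. Krtap12-1 was wholly inside a 115 kb H2AK119ub region from 77623970 to 77739187 that began well below it. Krtap10-4 was wholly inside a region of 4.47 kb, and Krtap10-10 was covered over 86.8% of its body by one of 3.04 kb. All 3 lie within the annotated span of Tspear (77686108 to 77886994), which itself counted as having both marks, its H3K27me3 coming from a 2.01 kb region (77685441 to 77687448) at its lower end, outside the cluster. Of the 12 other protein-coding genes wholly inside the 117 kb from Krtap12-1 to Krtap10-10, 10 had H2AK119ub and none had H3K27me3. Over all protein-coding genes the shares were 57.1% and 24.7%. H2AK119ub covered 57.0% of this span, against 93.8% and 78.2% of the 200 kb below and above it, so that the cluster had less of the mark than its flanks and more than chromosome 10 (14.7%). H3K27me3 covered 0% of the span, 3.28% of the lower and 21.7% of the upper flank, and the nearest regions were 33.1 kb below Krtap12-1 and 64.6 kb above Krtap10-10. The next gene with H3K27me3 above was Lrrc3, 60.3 kb away, through a 13.6 kb region that covered only its upper end. Below, the nearest H3K27me3 region was the one at the lower end of Tspear, and the next gene outside Tspear with that mark was Adarb1, an RNA-editing enzyme gene, 302 kb away. The nearest genes outside the span with H2AK119ub were the predicted genes Gm10142 and Gm36176, 4.42 kb below and 9.55 kb above.

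**Figure D3:**
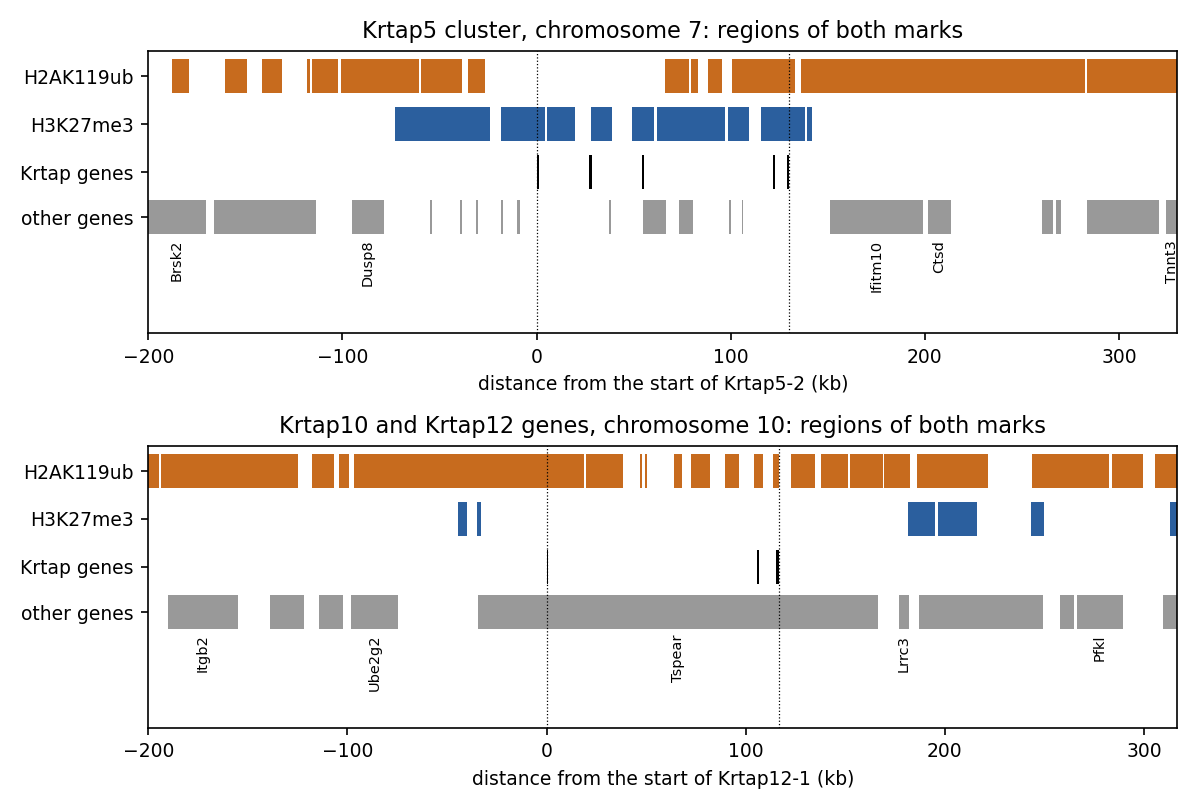
Called regions of H2AK119ub (orange) and H3K27me3 (blue) with Krtap genes (black) and other protein-coding genes (grey) over the clusters of chromosomes 7 and 10 and 200 kb on each side, plotted as distance in kb from the first Krtap gene, with dotted lines at the cluster's ends. On chromosome 7 H3K27me3 covers 78.1% between the lines and stops shortly above them, while on chromosome 10 no blue region lies between the lines.

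On chromosome 11 the Krtap genes lie inside the type I keratin cluster, and runs of marked and unmarked genes followed each other. The span from Krtap3-3 to Krtap17-1 was 444 kb (99550132 to 99993994). H2AK119ub covered 21.96% of it in 14 regions, under the 30.9% of the chromosome, and H3K27me3 covered 19.97% in 12 regions, over the 10.1% of the chromosome. Only 8.47% of the span had both marks and 66.5% had neither. The flanks had more H2AK119ub than the cluster, at 74.3% of the 200 kb below and 96.9% of the 200 kb above. Of the 23 genes, 8 had both marks, 4 had H2AK119ub alone, 1 had H3K27me3 alone and 10 had neither, and going along the chromosome a marked gene and an unmarked one were neighbours in 5 of 22 pairs. Counting changes between all 4 states, neighbours differed in 10 of 22.

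The high sulfur genes at the lower end were mostly unmarked. Krtap3-3, Krtap3-2 and Krtap3-1 had neither mark, at 19.8, 13.8 and 3.99 kb from the nearest H2AK119ub region. Krtap1-5 and Krtap1-4 had neither, and Krtap1-4 lay 1.04 kb from an H3K27me3 region, just outside the window. That region, 13.2 kb from 99584720 to 99597893, covered Krtap1-3 whole and 71.9% of the ultrahigh sulfur gene Krtap9-3, stopping inside the latter before its start site. Krtap1-3 also had a 4.395 kb H2AK119ub region, and Krtap9-3 had H3K27me3 alone. Krtap2-4 was wholly inside a 15.9 kb H2AK119ub region and 4.70 kb from H3K27me3.

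Among the 8 Krtap4 genes, which encode ultrahigh sulfur proteins, 5 had both marks. Krtap4-1 was covered whole by the same 15.9 kb H2AK119ub region (99613054 to 99628968) as Krtap2-4 and by a 4.16 kb H3K27me3 region. Krtap4-7 was covered whole by regions of 5.18 and 3.98 kb, and Krtap4-8 by regions of 3.56 and 9.75 kb, H2AK119ub first. Krtap4-9 lay wholly in a 13.7 kb H3K27me3 region (99784085 to 99797734), while its 2.28 kb H2AK119ub region left the start outside. Krtap4-2 was covered whole by H2AK119ub (11.8 kb) and its H3K27me3 region of 3.59 kb ended 0.458 kb short of the gene. Krtap4-13 counted as H2AK119ub alone through a region 0.22 kb away that covered none of its body. Krtap4-6 and Krtap4-16 had neither mark, and Krtap4-6 lay in a stretch of 98.1 kb without H2AK119ub. The widest distance between neighbouring Krtap genes of the cluster, 114 kb, lies just above Krtap4-6.

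Toward the upper end a run of 4 genes without marks, Krtap4-16, Krtap9-1, Krtap31-1 and Krtap31-2, was followed by marked genes. The run fell inside a 155 kb stretch without H3K27me3 (99797735 to 99952932) that held 6 Krtap genes. Krtap9-5 had H2AK119ub alone in a narrow region of 2.32 kb. Krtap29-1, Krtap16-1 and Krtap17-1 shared 1 H2AK119ub region of 22.8 kb, from 99977680 to 100000483, and the latter 2 also shared a 16.3 kb H3K27me3 region from 99981537 to 99997870. H3K27me3 ended there. The next gene above with it was Krt19, a keratin of simple epithelia, 147 kb beyond Krtap17-1. H2AK119ub went on over the hair keratin genes Krt33a and Krt33b (29.0 kb) and then, in a region of 202 kb, over Krt34, Krt31, Krt32, Krt35 and Krt36 as well as the basal keratin genes Krt15 and Krt14. At the lower border Krt40, a hair keratin gene next to Krtap3-3, had neither mark, and Krt39 beside it had a 1.88 kb H2AK119ub region. The nearest gene below with H3K27me3 was Krt20, 112 kb from Krtap3-3. Of the 15 other protein-coding genes inside the span, 3 had H2AK119ub, 5 had H3K27me3 and none had both.

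**Figure D4:**
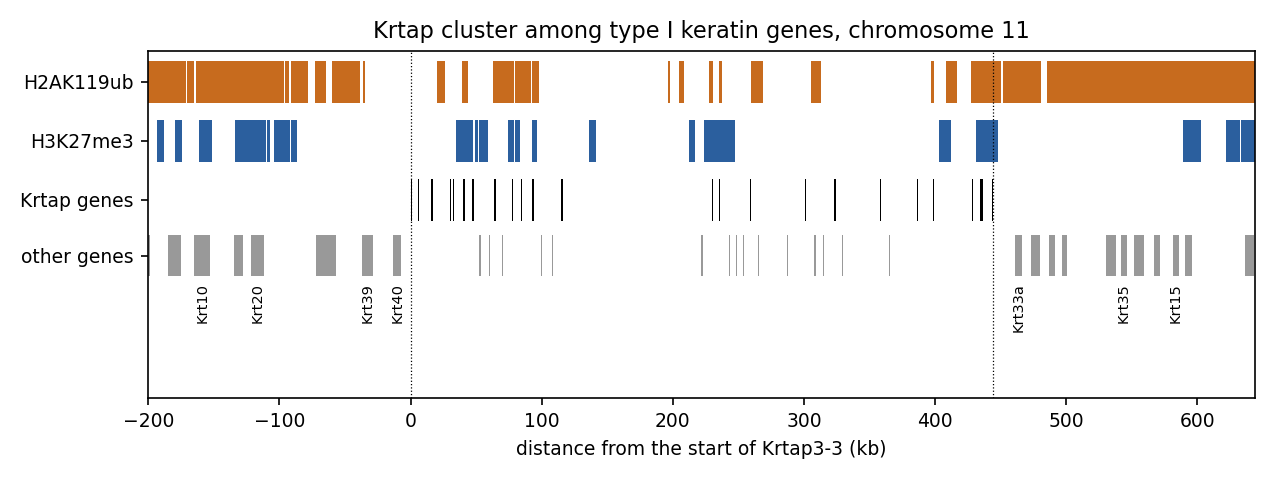
Called regions of H2AK119ub (orange) and H3K27me3 (blue) with Krtap genes (black) and other protein-coding genes (grey) from 200 kb below Krtap3-3 to 200 kb above Krtap17-1, in kb from Krtap3-3, with dotted lines at the cluster's ends. Short separate regions of both marks stand between the lines (21.96% and 19.97% covered), and H2AK119ub covers 96.9% of the sequence shown above them.

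The cluster of chromosome 16 was almost free of both marks. It spans 960 kb, from Krtap24-1 to Krtap11-1 (88610709 to 89571183), and holds all 15 high glycine-tyrosine genes (families Krtap6, Krtap7, Krtap8, Krtap19, Krtap20, Krtap21 and Krtap22), 8 high sulfur genes and Krtap16-3. H2AK119ub covered 1.10% of the span and H3K27me3 covered 0%, against 12.95% and 3.54% of the chromosome. Krtap11-1, the last gene, was the 1 exception: a 10.3 kb H2AK119ub region from 89563407 to 89573702 covered it whole. The only other region in the span was an H2AK119ub region of 2.78 kb, 11.3 kb above Krtap7-1.

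The unmarked sequence reached far beyond the genes. No H2AK119ub region was called from 87758138 to 89519653, a stretch of 1762 kb that held 23 Krtap genes and 60 protein-coding genes in all. By length it ranked 190 of 30070 autosomal stretches between neighbouring H2AK119ub regions, whose median was 7.67 kb. No H3K27me3 region was called from 88293229 to 90329706, a stretch of 2036 kb that held all 24 Krtap genes and ranked 173 of 12933, with a median of 26.6 kb. These ranks describe length alone. Krtap26-1 was the farthest from H2AK119ub (872 kb) and Krtap21-1 the farthest from H3K27me3 (926 kb). The 34 other protein-coding genes inside the span also had neither mark. Neither mark was found at 39.4% of all protein-coding genes and 50.2% of those on chromosome 16. Among genes no longer than the longest Krtap gene the share was 74.1%.

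The borders of this cluster differed. Over the 200 kb below Krtap24-1 neither mark was called, and the nearest regions were an H3K27me3 region at Grik1, a glutamate receptor gene, 317 kb away, and an H2AK119ub region 853 kb away, near Bach1, a transcription factor gene. Above Krtap11-1, H2AK119ub regions followed, the first 7.15 kb away, and covered 30.9% of the next 200 kb. Tiam1, a regulator of the GTPase Rac, was the first gene there with H2AK119ub at an end. The gene begins 216 kb from Krtap11-1, and the 58.3 kb region that marks it (90135490 to 90193788) lies at its other end. Hunk, 814 kb away, was the first with H3K27me3.

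**Figure D5:**
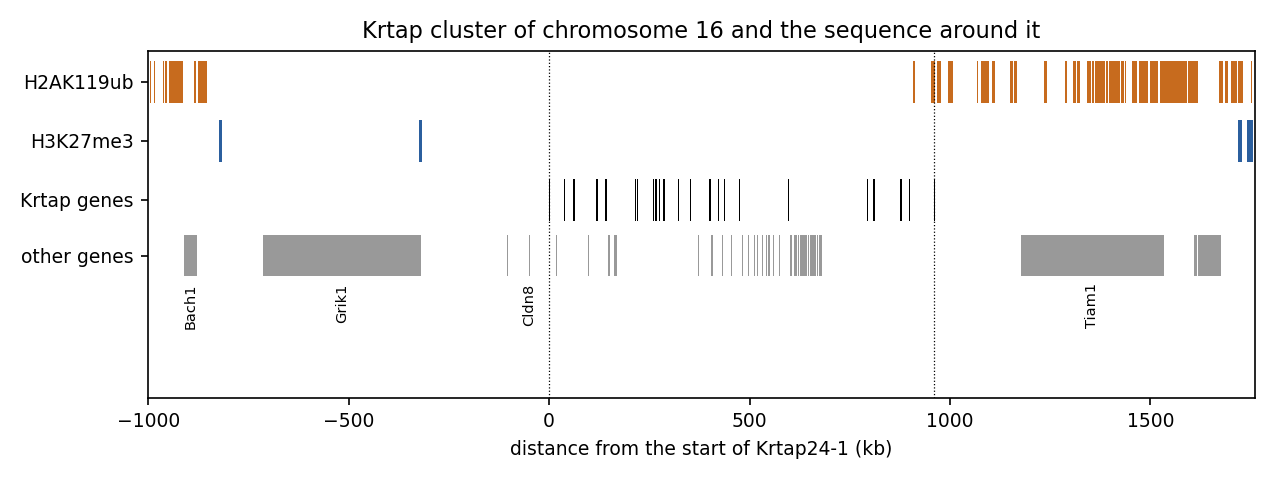
Called regions of H2AK119ub (orange) and H3K27me3 (blue) with Krtap genes (black) and other protein-coding genes (grey) from 1000 kb below Krtap24-1 to 800 kb above Krtap11-1, in kb from Krtap24-1, with dotted lines at the cluster's ends. Between the lines only 2 orange regions appear, both at the upper end, and no blue one.

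Krtap28-13, the single member on chromosome 1, had neither mark, with an H2AK119ub region 1.79 kb above it, outside the window, and the nearest H3K27me3 region 59.9 kb below it. By the distance to the nearer end of the gene, the nearest marked genes were Mff below (H3K27me3 alone, 309 kb away) and Daw1 above (H2AK119ub alone, 97.8 kb away), followed by Col4a3 below (both marks) and Sphkap above (H3K27me3 alone).

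Read by protein class instead of position, most marked Krtap genes were ultrahigh sulfur genes. Classes were assigned by family number, and 6 genes (Krtap16-1, Krtap16-3, Krtap28-13, Krtap29-1, Krtap31-1 and Krtap31-2) were left unclassed. The 3 Krtap10 and Krtap12 genes of chromosome 10 were placed with the ultrahigh sulfur genes without a check of protein sequences. All 3 had H2AK119ub and none had H3K27me3, so classing them as high sulfur instead would change the counts of both classes. Of 20 ultrahigh sulfur genes, 13 (65.0%) had H2AK119ub, a share near the 57.1% of all genes, and 12 (60.0%) had H3K27me3, against 24.7% of all genes. Among genes no longer than the longest Krtap gene the shares were lower, at 22.6% and 11.7%. Of 15 high sulfur genes 3 had H2AK119ub and 1 had H3K27me3, and of 15 high glycine-tyrosine genes none had either. These counts depended on the settings: with regions of 5 kb or wider H2AK119ub was left at 8 ultrahigh sulfur genes, and with a window of 5 kb the high sulfur counts rose to 5 and 4. Class and chromosome cannot be told apart for the high glycine-tyrosine genes, which all lie on chromosome 16. The totals of the other 2 classes mix class and chromosome too. Outside chromosome 11, the 8 ultrahigh sulfur genes lie on chromosomes 7 and 10 and the 8 high sulfur genes on chromosome 16. On chromosome 11, where 2 classes occur together, 8 of 12 ultrahigh sulfur genes had H2AK119ub and 7 had H3K27me3, against 2 and 1 of 7 high sulfur genes. High sulfur genes had H2AK119ub at 1 of 8 on chromosome 16.

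In median width, the regions at Krtap genes were narrower than the autosomal list for H2AK119ub and wider for H3K27me3. The 14 H2AK119ub regions that marked a Krtap gene had a median width of 7.10 kb, with a range from 2.28 to 115 kb, against 8.09 kb for the autosomal list. The 11 H3K27me3 regions had a median of 11.6 kb, from 3.59 to 22.6 kb, against 7.69 kb. A wide region meets a gene window more readily than a narrow one, and the list also holds regions away from genes. Widths at other genes were not measured, so these medians do not show a trait of Krtap genes. Of these regions, 3 of either mark took in more than 1 Krtap gene, up to 3 genes for H2AK119ub and 2 for H3K27me3. Over the start sites themselves, H2AK119ub was called at 13 of 51 Krtap starts (25.5%, against 39.7% of all protein-coding starts) and H3K27me3 at 10 (19.6%, against 19.0%).

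Krtap genes are a family of duplicates, so the sequence they share was counted. Of the 51 Krtap windows, 9 (17.6%) held at least 1 stretch of 75 bases, the read length, that also occurs at the start of another gene of the table, against 12.8% of all windows. These were Krtap5-1, Krtap5-2 and Krtap5-5 on chromosome 7, Krtap4-9, Krtap4-13, Krtap31-1 and Krtap31-2 on chromosome 11, and Krtap13 and Krtap6-1 on chromosome 16. The largest numbers of shared stretches, of 226 per window, were 113 in Krtap4-13 and 76 in Krtap4-9 and Krtap13. By chromosome these were 3 of 5 windows on 7, 4 of 21 on 11 and 2 of 23 on 16, and by state 2 of 4 with H3K27me3 alone, 2 of 9 with both marks, 1 of 6 with H2AK119ub alone and 4 of 32 with neither. Gene bodies were not examined, and the part of shared sequence in the calls was not tested.

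Other genes of the hair shaft had H2AK119ub at larger shares than the Krtap genes, a difference that was not tested. The lists were not matched to the Krtap genes for length. Among genes no longer than the longest Krtap gene, 22.6% had H2AK119ub. Of 15 hair shaft keratin genes, 14 had H2AK119ub, against 57.1% of all protein-coding genes, and 4 (26.7%) had H3K27me3, near the 24.7% of all genes. Of the type I members on chromosome 11, Krt40 had neither mark and the others (Krt31, Krt32, Krt33a, Krt33b, Krt34, Krt35, Krt36 and Krt39) had H2AK119ub alone. The type II members on chromosome 15 shared a 229 kb H2AK119ub region, within which Krt81, Krt82, Krt86 and Krt87 also had H3K27me3 (5.56 to 24.5 kb) and Krt83 and Krt84 did not. All 7 inner root sheath keratin genes had H2AK119ub, and Krt25, Krt26, Krt27, Krt28, Krt72 and Krt73 had H3K27me3 too, while Krt71 did not.

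The regulators of hair shaft genes carried both marks at 10 of 12, against 21.1% of all protein-coding genes. Hoxc13 lay in an H2AK119ub region of 268 kb and an H3K27me3 region of 160 kb. Lef1, the nuclear partner of beta-catenin, had 27.6 and 23.9 kb, and Gata3, a factor of the inner root sheath, had 106 and 33.3 kb in the same order. Msx1, Msx2, Dlx3, Foxq1, Prdm1, Ovol1 and Cux1 also had both. Either end counts for either mark, and at Prdm1 the widest regions lay at opposite ends. They ran from 44437702 to 44482113 for H2AK119ub and from 44522052 to 44530973 for H3K27me3. Foxn1, the gene of the nude mouse, and Vdr, the vitamin D receptor gene, had H2AK119ub alone (58.5 and 52.0 kb). Among 8 other proteins of the shaft and its sheaths, the peptidylarginine deiminase genes Padi1 and Padi3 had both marks. Tchh (trichohyalin), Tchhl1, S100a3, Tgm3 and Lgals3 had H2AK119ub alone, and Dsg4, a desmosomal cadherin of the hair shaft, had neither.

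Of 7 marker genes of the basal cells that were sorted, Krt5, Krt14, Krt15, Itga6, Itgb4 and Col17a1 had H2AK119ub at an annotated end. Trp63 had none there, and regions deeper inside a long gene such as Trp63 (25683763 to 25892088) were not counted. At the annotated ends, 0 of the 7 had H3K27me3. The shares of all protein-coding genes to set beside these and the following small counts are 57.1% for H2AK119ub, 24.7% for H3K27me3, 21.1% for both and 36.0% for H2AK119ub alone. Both marks were present at all 3 Merkel cell markers, at 2 of 3 dermal fibroblast markers and at 2 of 3 immune markers. Of 5 suprabasal markers, 4 had H2AK119ub and 2 of these had H3K27me3, and H2AK119ub alone was found at 1 of 4 melanocyte and 1 of 2 endothelial markers. The lists hold no expression values, so these marks do not measure which cells were present.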

How the data were processed

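Basal epidermal cells gave 2 H2AK119ub, 2 H3K27me3 and 1 input library of single 75 nt reads from 5 ng of DNA. The authors deposited 1 region list per mark, with 3 columns per the file headers, the chromosome and the 2 ends of each region (33155 and 15102 regions). The submitters' processing notes name Bowtie2 2.3.3.1, SAMtools 1.9 and mm10. The peak caller, its settings, the role of the input, any pooling of libraries and the depth are things not given in the sources used here. Unmarked therefore means without a called region.

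Region starts were taken as 0-based. Genes came from RefSeq's GRCm38.p6 table, and strands and start sites from its promoter table. Clusters were runs of Krtap genes up to 500 kb apart, flanks were 200 kb, and a stretch is the sequence between neighbouring regions of 1 mark. Overlap needed 1 bp. Interval functions (Python 3.11.15, pandas 2.3.3, numpy 2.4.6) were tested on simulated data. No protein sequences were used, so protein classes followed family numbers. Krt74 and Krt85 are not analysed here. Members, lists and classes were chosen with earlier results of these data known. All members with a mark, each cluster's outermost members and the nearest marked neighbours were to be named. So were all marked genes of the hair lists. Further genes in the text were chosen after their values were seen. Alternatives were other windows, overlaps, widths, merging, flanks, cluster gaps and backgrounds.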

Additional observations from a re-analysis of the deposited data

How the results depend on the processing

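Over 234 alternative values of 54 results, 214 stayed within 1.5 times the reported value and 20 did not. Some of the 214 could not have moved. Neighbouring Krtap genes of a cluster lay at most 197 kb apart, so cluster gaps of 200 kb and 1 Mb gave the same clusters. Merging gaps of up to 5 kb could not change a longest stretch wider than that. The count of 214 thus overstates how far the results were tried. The counts of Krtap genes with H2AK119ub (12 to 23), with H3K27me3 (11 to 19) and with neither mark (29 to 37) stayed within it in each setting tried, among them the addition of 2 genes with a Krtap synonym, chosen after seeing the data. With regions of 5 kb or wider only, both marks were found at 4 Krtap genes instead of 10, and H2AK119ub at 8 ultrahigh sulfur genes instead of 13. The median distance to H2AK119ub then rose from 12.5 to 22.7 kb. The longest stretch over a Krtap cluster without H2AK119ub became 34.2 kb on chromosome 10 and 162 kb on chromosome 11, and that without H3K27me3 became 1281 kb on chromosome 1 and 451 kb on chromosome 10. A window of 5 kb gave 5 high sulfur genes with H2AK119ub and 4 with H3K27me3, and 2 unclassed genes with H3K27me3. Against genes no longer than the longest Krtap gene, the background was 22.6% for H2AK119ub and 11.7% for H3K27me3. With flanks of 100 kb, H3K27me3 covered 38.9% on chromosome 7, 19.7% on 10, 8.22% on 11 and 3.75% on 1, and H2AK119ub covered 7.08% on 1. With flanks of 500 kb, H3K27me3 covered 39.6% on chromosome 7, 3.05% on 1 and 0.824% on 16. Classes by protein composition were not run, because no protein sequences were used. No paired analysis was possible because each mark has 1 list with no replicate values, and for the same reason no library could be left out. Depth is unknown.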
